A study of Homo sapiens with 30 samples.

Results

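The experiment described here is the androgen response of LNCaP cells whose mTOR was kept out of the nucleus. LNCaP is an established human prostate cancer line that expresses the androgen receptor. All cells carried an shRNA that knocks down mTOR, and the NES line was rescued with mTOR that bears a nuclear export signal, expressed from an inducible system. Androgen was withdrawn by 48 h of culture in 2% charcoal-stripped serum. A further 24 h followed with 0.1% ethanol, called vehicle below, or with the synthetic androgen R1881 at 10 nM. The 6 libraries of this line, 3 under vehicle and 3 under R1881, were chosen by their labels out of 30 libraries in the study, and all 18296 genes that passed the filter on low counts, of 58735 in the table, were compared. The other lines used below for comparison had the same shRNA and treatments, and their rescue vector was empty (EV line) or encoded mTOR in its wild-type form (WT line) or with a nuclear localization signal (NLS line). Total RNA was sequenced. The labels call the samples triplicates, and nothing says that they were separate cultures, so the p-values measure only how these samples spread, and that spread may be technical.

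The androgen receptor is a nuclear receptor: on binding androgen it enters the nucleus, binds DNA at short palindromic elements with the help of pioneer factors such as FOXA1, and raises or lowers the transcription of nearby genes. In luminal prostate cells its targets include secreted proteases such as prostate-specific antigen and genes of lipid and secretory metabolism. mTOR is the kinase of the mTORC1 and mTORC2 complexes, which control growth and metabolism mostly in the cytoplasm, and it has also been described at chromatin in prostate cancer cells. The comparison asks what androgen changes when the rescue form of mTOR is directed out of the nucleus.

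Library totals were 26774015, 21435364 and 22912221 counts under vehicle and 61762468, 25222922 and 23779270 counts under R1881, in the order of replicates 1 to 3. Levels are given as CPM, the usual library-size-scaled counts, with totals scaled by TMM factors. Replicate 1 stood apart from replicates 2 and 3 under both treatments: the chi-square per degree of freedom between libraries was 130 to 146 for vehicle replicate 1 against the others and 14.1 between vehicle replicates 2 and 3, and 57.8 to 108 and 19.6 under R1881. In replicate 1 ribosomal protein genes were lower by a median log2 difference of -0.45 under vehicle and -0.42 under R1881, and 1497 and 170 genes, respectively, differed by more than 2-fold from the mean of the other libraries, among 11038 genes whose mean reached 5 CPM. Over these 11038 genes the difference of replicate 1 correlated with gene length (Spearman correlation 0.37 under vehicle and 0.43 under R1881). Leukocyte markers summed to at most 0.498 CPM in any library and CD3D, CD3E and MS4A1 had 0 counts. Luminal markers, led by KLK3, FOLH1 and KRT8, summed to 6027 to 6910 CPM under vehicle and 13572 to 15127 under R1881, so the luminal markers that the cell line is known for were present. Basal markers summed to 39.9 to 110 CPM, neuroendocrine markers to 26.6 to 44.7 and mesenchymal markers to 244 to 398.

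MTOR, the gene that was knocked down and rescued (hg38 chromosome 1, 11106535 to 11262507), was measured at 7593, 4152 and 4011 CPM under vehicle and at 5865, 3183 and 3838 CPM under R1881. The groups overlapped, replicate 1 was the highest of each, and no change was called (log2 fold change -0.29 ± 0.32, standard error as for all fold changes below, edgeR adjusted p = 0.715). In the EV line it was measured at 25.7 ± 4.86 CPM under vehicle (SD, n = 3). Gene counts cannot tell reads of the rescue construct from reads of the cells' own MTOR.

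Androgen changed 1510 genes in these cells at an adjusted p under 0.05, which is 8.25% of the genes tested. Of these, 770 (4.21%) were higher under R1881 and 740 (4.04%) were lower. In the fitted fold changes, which depend on the prior count where a group has 0 counts, 464 genes rose and 529 fell at least 2-fold, and 87 rose and 36 fell at least 16-fold. Genes of high level rose more often than they fell: among 2290 genes above 100 CPM, 196 were higher and 57 lower, whereas among 2859 genes between 1 and 5 CPM, 105 were higher and 201 lower. The vehicle and R1881 libraries did not overlap for 1497 of the 1510 called genes and for 24.6% of all genes tested. Same-numbered vehicle and R1881 libraries deviated together, and replicates 2 and 3 also did so across numbers, somewhat less closely. With replicate number as a block, 1629 genes (8.9%) were higher and 1297 (7.09%) lower, among them 1486 of the 1510 in the same direction. The plot of level against change shows the called genes over the range of levels.

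**Figure D1:**
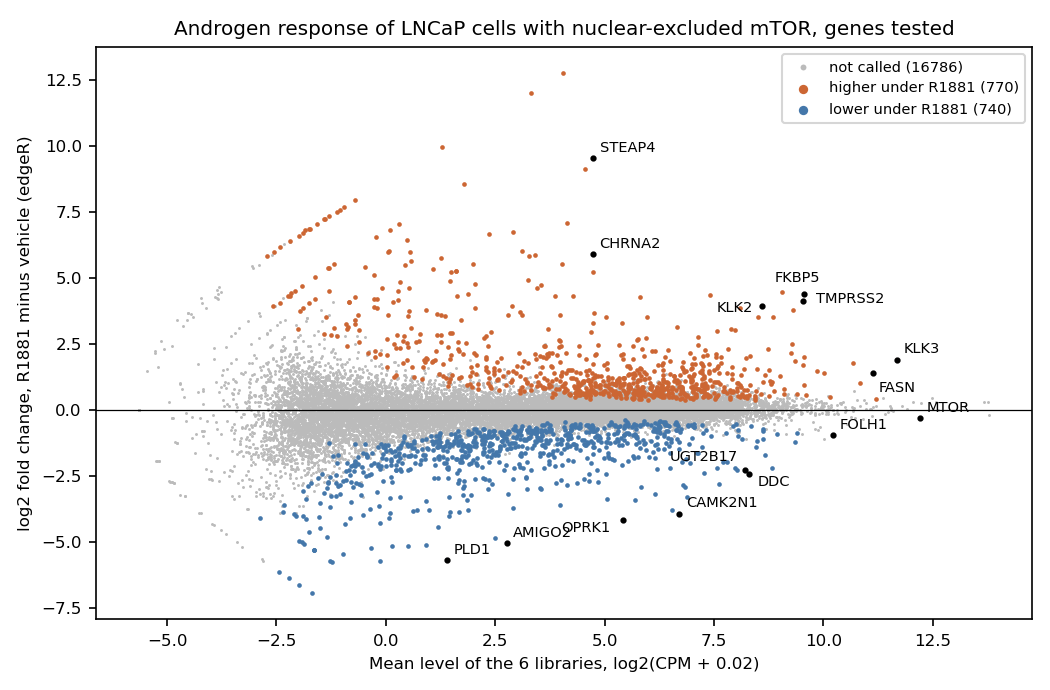
Each point is 1 of the 18296 genes tested: the x axis is the mean level of the 6 libraries as log2(CPM + 0.02) and the y axis the edgeR log2 fold change of R1881 over vehicle. The 770 genes called higher and the 740 called lower are coloured, KLK3, TMPRSS2 and FKBP5 stand high at high levels, and fold changes of genes with 0 counts under vehicle depend on the prior count.

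The genes with the steepest rise were almost silent without androgen. SLC38A4, a transporter of neutral amino acids (chromosome 12, 46764761 to 46832408), had 0 counts in the 3 vehicle libraries and 41.5, 27.5 and 31.0 CPM under R1881, at least 679-fold higher against a floor of 3 counts over the vehicle group. SLC2A3, a glucose transporter (GLUT3), had 0 counts under vehicle and 26.5, 14.1 and 19.0 CPM under R1881, at least 348-fold higher. STEAP4, a metalloreductase of iron and copper, went from 0.0743, 0.0883 and 0.0406 CPM to 72.9, 42.3 and 45.5 CPM (9.54 ± 0.68, edgeR adjusted p = 5.3e-10). All 3 were absent or nearly absent in every vehicle library and well expressed in every R1881 library.

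CCDC141 rose from 0.186, 0.0442 and 0 CPM to 65.5, 29.1 and 46.1 CPM (9.11 ± 0.86; 10.80 without vehicle replicate 1). AKAP12, a scaffold that anchors protein kinase A, rose from 0.26, 0.0883 and 0.406 CPM to 65.7, 19.3 and 20.5 CPM (7.09 ± 0.79; 6.24 without R1881 replicate 1), highest in replicate 1. ORM1, an acute-phase plasma glycoprotein, had 1 count in all vehicle libraries together and 615 under R1881, a ratio of 428 with an exact 95% counting interval of 76.6 to 16944, and its neighbour ORM2 rose from 0.132 ± 0.0495 to 14.8 ± 3.41 CPM (6.73 ± 0.51). These paralogs are nearly identical, and the handling of reads that match both is not given in the sources used here, so their separate values are uncertain.

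The other genes of the 12 highest had low but measurable vehicle levels. PGC, which encodes the protease precursor pepsinogen C, rose from 0.0947 ± 0.0937 to 10.2 ± 1.55 CPM (6.68 ± 0.68; 7.80 without vehicle replicate 3), and CHRNA2, a nicotinic acetylcholine receptor subunit, from 0.875 ± 0.331 to 52.7 ± 7.05 CPM (5.91 ± 0.35). Transcription factors were among them: SNAI2 (Slug), a zinc-finger repressor known from epithelial-mesenchymal transition, rose from 0.297, 0.221 and 0.527 CPM to 23.8, 17.0 and 22.0 CPM (5.88 ± 0.38), and RUNX1, a Runt-domain factor, from 0.669, 0.927 and 0.446 CPM to 46.6, 23.4 and 25.4 CPM (5.54 ± 0.44). LAMA1, a laminin chain of basement membranes, rose from 0.15 ± 0.0343 to 5.87 ± 0.805 CPM (5.26 ± 0.60). For the 12 highest, only genes whose groups did not overlap were eligible. In the plot of the extreme genes no vehicle library therefore reaches any R1881 library.

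**Figure D2:**
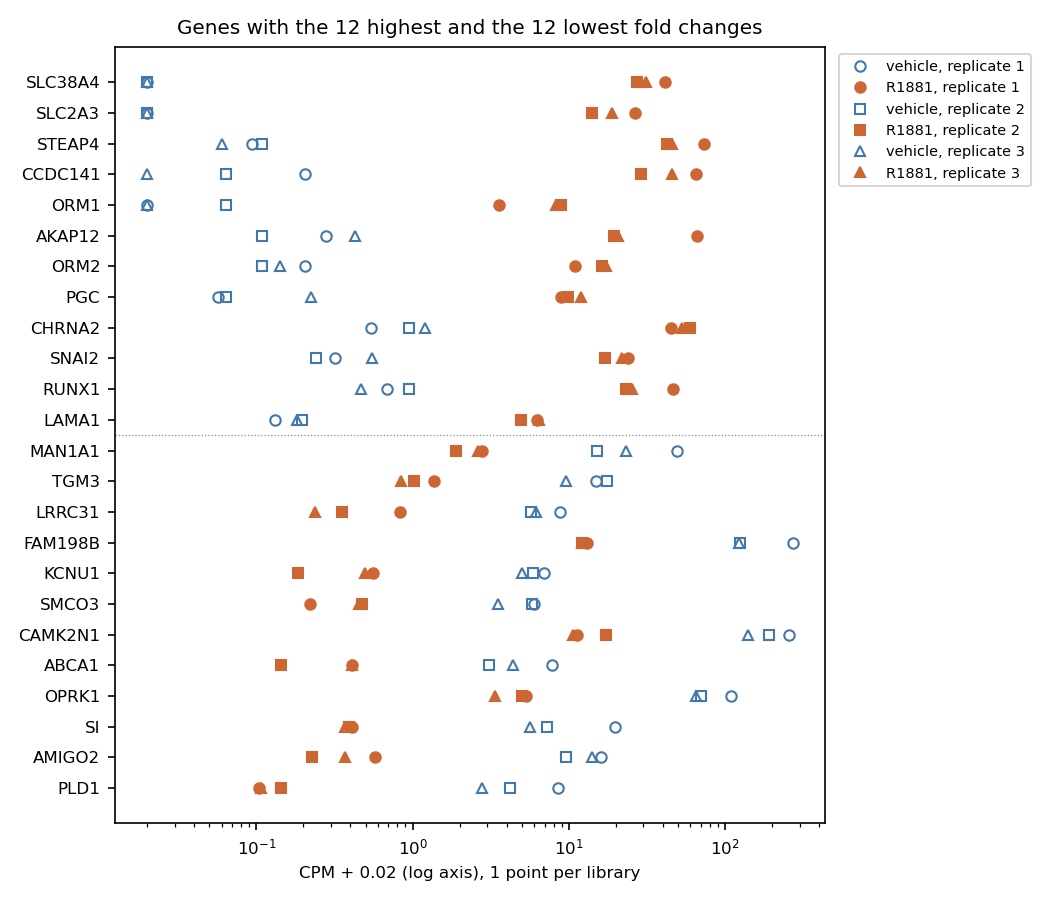
The x axis is CPM + 0.02 on a log axis, with 1 point per library (open blue for vehicle, filled orange for R1881, symbols for replicate numbers), for the called protein-coding genes with a mean of at least 5 CPM in the higher group that had the 12 highest and the 12 lowest fold changes. Only genes whose groups do not overlap were eligible, so the groups are apart for all 24 genes by choice. SLC38A4 and SLC2A3 lie at 0 CPM in all vehicle libraries.

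The genes with the steepest fall were a membrane receptor, transporters, enzymes and adhesion proteins. PLD1, a phospholipase D, fell from 8.51, 4.2 and 2.76 CPM to 0.0841, 0.124 and 0.0868 CPM (-5.69 ± 0.61). AMIGO2, a neuronal-type adhesion protein, fell from 16.0, 9.58 and 14.1 CPM to 0.555, 0.207 and 0.347 CPM (-5.04 ± 0.39), and SI, the gut disaccharidase sucrase-isomaltase, from 19.6, 7.24 and 5.64 CPM to 0.387, 0.373 and 0.347 CPM (-4.85 ± 0.71; -4.12 without vehicle replicate 1). OPRK1, the kappa opioid receptor, started higher, at 109, 70.1 and 65.3 CPM, and was at 5.32, 4.98 and 3.34 CPM under R1881 (-4.16 ± 0.35). In each of these 4 genes the highest R1881 library lay far below the lowest vehicle library, though non-overlap was a condition of their choice.

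ABCA1, the exporter of cellular cholesterol, fell from 7.8, 3.05 and 4.34 CPM to 0.387, 0.124 and 0.391 CPM (-4.0 ± 0.65). CAMK2N1, an inhibitor of the calcium/calmodulin kinase CaMKII, fell from 257, 192 and 141 CPM to 11.3, 17.3 and 10.6 CPM (-3.92 ± 0.27), and FAM198B from 271, 124 and 124 CPM to 13.1, 12.2 and 12.2 CPM (-3.79 ± 0.44). In vehicle, FAM198B and CAMK2N1 were highest in replicate 1, and the groups did not overlap, as the choice of the 12 lowest required. SMCO3 (-3.85 ± 0.63), the potassium channel KCNU1 (-3.85 ± 0.52), LRRC31 (-3.78 ± 0.49; -4.64 without R1881 replicate 1), the transglutaminase TGM3 (-3.69 ± 0.40) and the Golgi mannosidase MAN1A1 (-3.59 ± 0.50) completed the 12 lowest, with R1881 means of 0.364 to 2.41 CPM.

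The classical targets of the androgen receptor rose in every library. KLK3, which encodes prostate-specific antigen (chromosome 19, 50854915 to 50860764), was at 1201, 1712 and 1254 CPM under vehicle and at 4313, 5881 and 5436 CPM under R1881 (1.91 ± 0.32, edgeR adjusted p = 0.000158). Its neighbour KLK2 (50861568 to 50880567), a related protease, went from 48.0, 53.7 and 41.0 CPM to 680, 761 and 760 CPM (3.95 ± 0.27, adjusted p = 9.79e-11). Per gene length KLK3 remained the more abundant: 297 ± 58.7 FPKM under vehicle and 1097 ± 173 under R1881, against 7.39 ± 0.935 and 112 ± 7.38 FPKM for KLK2, so KLK3, with the smaller fold, had the higher level without androgen. The pair is similar in sequence, and reads that match both genes could be counted to either.

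TMPRSS2, a membrane serine protease (chromosome 21, 41464551 to 41531116), rose from 78.3, 95.6 and 69.1 CPM to 1447, 1415 and 1354 CPM (4.12 ± 0.22). FKBP5, a co-chaperone of HSP90 that binds steroid receptors (chromosome 6, 35573585 to 35728583), rose from 81.7, 58.5 and 66.4 CPM to 1784, 1181 and 1367 CPM (4.39 ± 0.26). Within each group both genes varied little beside a rise of more than 10-fold. SLC45A3, the membrane protein prostein, rose from 46.7 ± 12.3 to 1021 ± 122 CPM (4.45 ± 0.20), and PMEPA1, an inhibitor of TGF-beta signalling, had the smallest adjusted p among the genes named here (3.86 ± 0.15, adjusted p = 1.41e-15), at 31.9, 37.2 and 36.0 CPM under vehicle and 519, 476 and 534 CPM under R1881.

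Promoter sequence was read from RefSeq windows of GRCh38.p14, 250 bases before to 50 after a start, for the 12 highest genes, the targets KLK3, KLK2, TMPRSS2 and FKBP5, and MTOR. Windows matched 11 of these 17 genes by symbol, and those of 3 held the 6-base half-site of the androgen response element, AGAACA or its reverse complement TGTTCT (both strands searched). They are shown because they put the letters of the element beside a gene that rose, each 5′ to 3′ on the gene's strand with the half-site in capitals.
KLK3 (chr19:50854665-50854964, + strand): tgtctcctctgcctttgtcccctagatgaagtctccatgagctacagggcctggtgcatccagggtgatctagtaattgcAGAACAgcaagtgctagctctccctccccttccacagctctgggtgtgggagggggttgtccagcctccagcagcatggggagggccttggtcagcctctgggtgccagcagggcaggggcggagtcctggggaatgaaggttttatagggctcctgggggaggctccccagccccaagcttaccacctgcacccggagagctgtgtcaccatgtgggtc
FKBP5 (chr6:35728534-35728833, - strand): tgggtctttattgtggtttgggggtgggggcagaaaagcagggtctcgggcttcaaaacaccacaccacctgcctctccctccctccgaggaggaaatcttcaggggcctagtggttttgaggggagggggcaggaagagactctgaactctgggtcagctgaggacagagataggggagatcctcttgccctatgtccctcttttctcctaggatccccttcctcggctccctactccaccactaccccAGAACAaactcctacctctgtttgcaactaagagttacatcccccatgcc
SLC38A4 (chr12:46825948-46826247, - strand): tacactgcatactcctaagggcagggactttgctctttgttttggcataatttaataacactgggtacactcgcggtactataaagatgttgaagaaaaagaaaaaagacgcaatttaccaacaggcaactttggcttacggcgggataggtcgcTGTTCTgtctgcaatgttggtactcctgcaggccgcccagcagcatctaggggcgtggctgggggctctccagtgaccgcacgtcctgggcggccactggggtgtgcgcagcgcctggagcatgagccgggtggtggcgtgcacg
Counted from the start of the window shown, the half-site is at position -170 in KLK3, -95 in SLC38A4 and 0 in FKBP5. FKBP5 had 2 windows, of which 1 held the half-site. The SLC38A4 window lies within the interval given above for the gene, so its start is not the outer end of that interval. In KLK3 the 6 bases across a 3-base spacer match 4 of 6 letters of the palindrome, and in FKBP5 and SLC38A4 they match 2 of 6. The half-site is common: it was present in 14.8% of all promoter windows in the table, in 10.0% of those of genes tested, in 9.42% of those of genes that rose and in 12.6% of those of genes that fell. These shares count windows, whereas the 3 of 11 above counts genes, some with more than 1 window. A match is a description of letters and not a binding site, and windows of 300 bases leave out distal elements.

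Of 67 androgen-induced genes, all of which were tested, 59 rose, 1 fell and 7 were not called, with a median log2 fold change of 2.30 beside a median of 0.00 over all genes tested. Among all genes tested 4.21% rose and 4.04% fell. The list was chosen with earlier results of these data in view, so its direction is a description and not independent evidence. Beside the genes above, the bZIP factor MAF rose from 15.8 ± 0.919 to 326 ± 74.1 CPM (4.37 ± 0.33), the ion channel TRPM8 from 5.49 to 106 CPM (4.27 ± 0.40), the kinase SGK1 from 1.85 to 37.0 CPM (4.32 ± 0.43) and the prostaglandin-degrading enzyme HPGD from 0.285 to 5.90 CPM (4.32 ± 0.63; 5.07 without vehicle replicate 1). The ETS factor SPDEF rose by 2.30 ± 0.34 and the bile-acid and drug exporter ABCC4 by 2.14 ± 0.41. GPR63, a G protein-coupled receptor, was the member that fell (-1.75 ± 0.34). STEAP2 (-0.52 ± 0.31) and STEAP1 (-0.36 ± 0.30), metalloreductase relatives of STEAP4, were not called (adjusted p = 0.413 and 0.607), nor was the kallikrein KLK15 (0.39 ± 0.34).

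Of 22 tested androgen-repressed genes, out of 24 listed, 12 fell, 3 rose and 7 were not called, with a median of -1.83. Among all genes tested 4.04% fell and 4.21% rose. Beside OPRK1, AMIGO2, SI and MAN1A1, those that fell included LRRN1 (213 to 21.9 CPM, -3.28 ± 0.30), DDC, the decarboxylase of dopamine and serotonin synthesis (547, 590 and 467 to 96.2, 112 and 94.5 CPM, -2.41 ± 0.24), the chemokine receptor ACKR3 (174 to 45.0 CPM, -1.95 ± 0.25) and the imprinted zinc-finger gene PEG3 (620 to 189 CPM, -1.71 ± 0.36). The members that rose were the glucuronosyltransferases UGT2B28 and UGT2B11 and the bHLH gene HES6 (63.9 ± 27.2 to 187 ± 19.0 CPM, 1.55 ± 0.33), so that this list did not move as 1 block.

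Enzymes that inactivate androgens by glucuronidation moved in opposite directions within 1 cluster of chromosome 4. UGT2B17 fell from 697, 386 and 387 CPM to 131, 87.7 and 90.5 CPM (-2.25 ± 0.27) and UGT2B15 from 547, 221 and 255 CPM to 83.2, 27.2 and 36.7 CPM (-2.79 ± 0.49; -3.43 without R1881 replicate 1). UGT2B28 rose from 1.003, 0.883 and 0.609 CPM to 36.1, 8.46 and 23.0 CPM (4.75 ± 0.67) and UGT2B11 from 8.32, 2.83 and 6.37 CPM to 75.4, 15.9 and 45.8 CPM (2.97 ± 0.68, adjusted p = 0.00501; 2.38 without R1881 replicate 1). In each of the 4 genes replicate 1 was the highest library of both groups. The groups did not overlap, as in 1497 of the 1510 called genes and in 24.6% of all genes tested. UGT2B10 gave -0.64 ± 0.49 (adjusted p = 0.554). These genes are close copies, so reads could be assigned to the wrong member.

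Among all 23 tested genes of androgen metabolism 4 rose and 2 fell, beside 4.21% and 4.04% of all genes tested. The others that rose were CYP11A1, the side-chain cleavage enzyme that starts steroid synthesis, with 2 counts under vehicle and 195 under R1881 (a ratio of 67.9, counting interval 18.5 to 565, at 2.01 ± 0.463 CPM), and the 17-beta-hydroxysteroid dehydrogenase HSD17B11 (1.29 ± 0.37, adjusted p = 0.0269). HSD17B11 lost its call under 5 of the 14 alternatives. The 5-alpha-reductases SRD5A1 (0.07 ± 0.19) and SRD5A3 (-0.13 ± 0.16) were not called. AKR1C3, which makes testosterone from androstenedione, had 5 counts under vehicle and 3 under R1881 over the 3 libraries of each group and was not called.

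Over all genes tested 4.21% rose and 4.04% fell, and 8.9% and 7.09% with the replicate block. Of 24 tested genes of receptor cofactors and related nuclear factors 3 rose and 2 fell, and 4 and 6 with the block. Among them, the zinc-finger factor KLF5 (5.01 to 25.9 CPM, 2.37 ± 0.34) and the grainyhead factor GRHL2 (108 to 283 CPM, 1.40 ± 0.16) rose. The receptors for glucocorticoid, NR3C1 (1.46 to 0.315 CPM, -2.23 ± 0.59), and progesterone, PGR (1.62 to 0.134 CPM, -3.61 ± 0.79), were lower, both at low levels. NR3C1 gave -1.21 without vehicle replicate 1 and lost its call under 6 of the 14 alternatives. PGR gave -2.89 without vehicle replicate 1 and -4.29 without R1881 replicate 3, and was not called when both replicate 1 libraries were left out. FOXA1, the pioneer factor, was at 719, 668 and 604 CPM under vehicle and 749, 597 and 659 CPM under R1881 (0.01 ± 0.13, adjusted p = 0.982). HOXB13 (-0.38 ± 0.19, adjusted p = 0.274) and GATA2 (-0.54 ± 0.27, adjusted p = 0.274) were not called.

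Secretory and surface products of the prostate took a larger share of the counts under androgen. The 26 listed genes took 0.820%, 0.640% and 0.593% of all counts under vehicle and 1.03%, 1.14% and 1.08% under R1881, and the groups did not overlap (difference 0.399 percentage points, exact two-sided permutation p = 0.1, the smallest that 3 against 3 libraries can give). KLK3 alone rose from 0.145% ± 0.0314 to 0.501% ± 0.0767 of the counts, a difference of 0.356 percentage points. It made up most of the difference of the list, and the share without KLK3 was not tested. Of 22 members tested 11 rose and 2 fell (4 fell with the block), beside 4.21% and 4.04% of all genes tested. With the block 7.09% of all genes tested fell. KLK4 (1.49 ± 0.40) and the zinc-binding glycoprotein gene AZGP1 (1.42 ± 0.34) rose. FOLH1, which encodes prostate-specific membrane antigen, fell from 1915, 1493 and 1363 CPM to 823, 892 and 738 CPM (-0.96 ± 0.16, adjusted p = 0.000197), and the secreted phospholipase PLA2G2A from 2.08 to 0.425 CPM (-2.29 ± 0.39). ACPP, prostatic acid phosphatase, was at 231, 153 and 177 CPM and 97.5, 143 and 144 CPM (-0.55 ± 0.22, adjusted p = 0.155; 0.0243 with the block).

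Luminal keratins rose with them: KRT8 from 493 ± 143 to 1361 ± 51.8 CPM (1.46 ± 0.31), KRT18 from 299 to 732 CPM (1.29 ± 0.36) and KRT19 from 4.33 to 14.7 CPM (1.77 ± 0.42). KRT18 lost its call under 5 of the 14 alternatives. Of 15 luminal markers 8 rose and 1 fell (4 fell with the block), beside 4.21% and 4.04% of all genes tested. The share that fell with the block was 7.09% over all genes tested. Of the few other markers that could be tested, the basal keratin KRT14 rose at a low level (0.0995 to 1.09 CPM, 3.41 ± 0.96, adjusted p = 0.0283) and lost its call without vehicle replicate 1, vehicle replicate 3 or R1881 replicate 2; the fold change ran from 2.72 without R1881 replicate 2 to 4.06 without vehicle replicate 2. TWIST1 rose from 4.51 to 18.5 CPM (2.03 ± 0.42) and COL3A1 fell from 0.848 to 0.0827 CPM (-3.19 ± 0.82; not called without R1881 replicate 2). VWF, known as an endothelial marker, was at 20.9, 20.8 and 22.5 CPM and fell to 4.53, 6.10 and 4.91 CPM (-2.05 ± 0.20), while the endothelial markers CDH5 and KDR had 0 counts in all 6 libraries. In bulk RNA, fewer cells of a type and less RNA per cell cannot be told apart.

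Genes of cholesterol synthesis were often higher under androgen. Of 25 tested genes 12 rose, none fell by the edgeR test (18 of 25 had an unadjusted p under 0.05, and DESeq2 and limma called 12 and 10 higher and 0 lower), and the median was 0.84. Beside this, 4.21% of all genes tested rose, and 8.9% with the replicate block. The count for the list was 19 with the block, 6 without vehicle replicate 3, 4 without R1881 replicate 1 and 5 without both replicate 1 libraries. SCAP, the sterol sensor that escorts SREBP proteins, rose from 92.0, 128 and 133 CPM to 384, 303 and 418 CPM (1.65 ± 0.17). It was called under all 14 alternatives.

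The synthesis enzymes between acetyl-CoA and cholesterol that are reported here rose by smaller amounts than SCAP. The largest fold change of the list was 1.79, in a member not reported here. FDFT1, squalene synthase, rose from 317, 251 and 198 CPM to 731, 479 and 406 CPM (1.08 ± 0.19), and IDI1 (1.05 ± 0.32), MVK (1.03 ± 0.33), the feedback protein INSIG1 (1.02 ± 0.29), SQLE (0.89 ± 0.24), LSS (0.86 ± 0.20), FDPS (0.84 ± 0.26), DHCR7 (0.70 ± 0.18) and ACAT2 (0.68 ± 0.18) also rose. Of the 14 alternatives, MVK lost its call under 9, FDPS under 7, IDI1 and ACAT2 under 6 and SQLE under 5. LSS, INSIG1 and DHCR7 lost theirs under 4 and FDFT1 under 1. Replicate 1 differed most in several: in same-numbered libraries FDPS rose by 1.46, 0.48 and 0.55 on the log2 scale, and in LSS the differences were 1.35, 0.38 and 0.84. The master factor SREBF2 gave 0.63 ± 0.25 (adjusted p = 0.139; 0.00147 with the block).

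Of 25 tested genes of fatty acid synthesis 8 rose and 0 fell (edgeR; 11 with an unadjusted p under 0.05, and 10 higher and 0 lower by DESeq2 and 7 and 0 by limma), with a median of 0.51. The share of all genes tested that rose was 4.21%. ACSL3, which activates long-chain fatty acids, rose from 262, 142 and 151 CPM to 1378, 784 and 1010 CPM (2.52 ± 0.37), and the elongase ELOVL7 from 57.0, 34.8 and 44.3 CPM to 216, 181 and 209 CPM (2.15 ± 0.32). FASN, fatty acid synthase, rose from 934, 1407 and 1360 CPM to 3577, 2892 and 3271 CPM (1.40 ± 0.20). Replicate 1 had the lowest vehicle and the highest R1881 level of FASN. ELOVL5 (1.05 ± 0.24), LPIN1 (0.92 ± 0.29), FADS1 (0.79 ± 0.19), ELOVL1 (0.76 ± 0.16) and ACACA (0.63 ± 0.18) also rose, and the desaturase SCD (0.26 ± 0.31) and the regulator SREBF1 (0.30 ± 0.23) were not called (adjusted p = 0.732 and 0.536). LPIN1 lost its call under 8, ACACA under 7, FADS1 under 3 and ELOVL1 under 1 of the 14 alternatives. Without R1881 replicate 1, 5 members of the list rose.

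**Figure D3:**
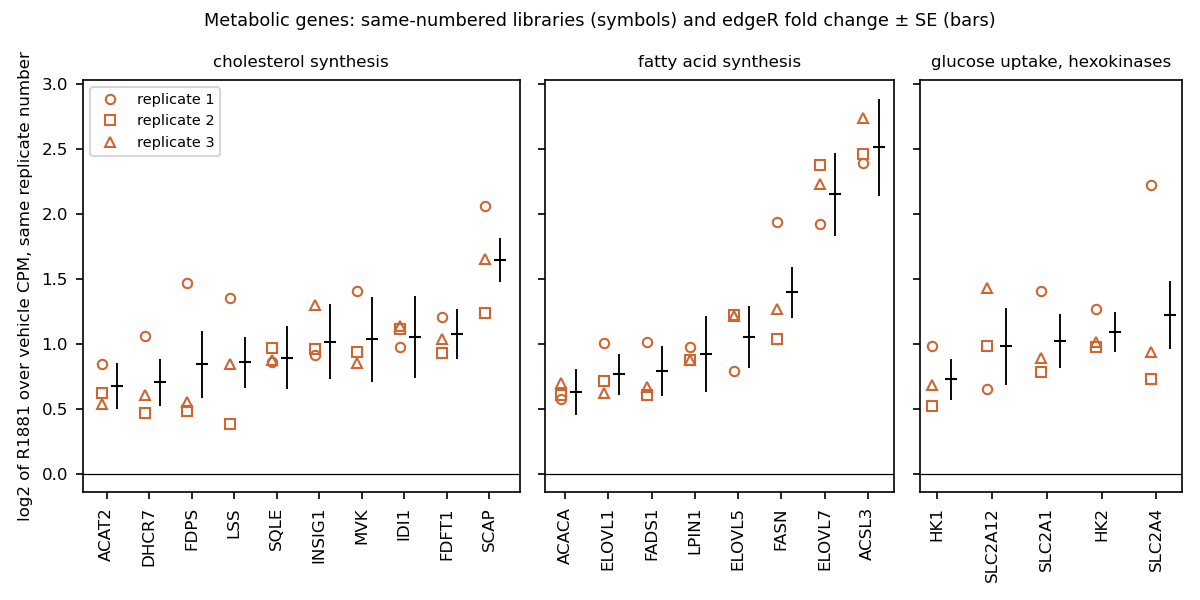
The y axis is the log2 ratio of R1881 over vehicle CPM, for each pair of libraries with the same replicate number (symbols) and as the edgeR fold change ± standard error (bars), for called genes of 3 metabolic lists that are reported here and had counts in all vehicle libraries. All pairs lie above 0 for every gene shown, but these genes were chosen by their call in the same libraries. The members not called (13 for cholesterol, 17 for fatty acid synthesis and 22 for sugar uptake and glycolysis) are not shown. FDPS, LSS and SLC2A4 are highest in replicate 1.

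Of 29 tested genes of sugar uptake and glycolysis 7 rose (4.21% of all genes tested did), 0 fell and 22 were not called (edgeR; 11 with an unadjusted p under 0.05, and 8 higher and 0 lower by DESeq2 and 6 and 0 by limma). Those that rose were the glucose transporter genes and hexokinases SLC2A3, SLC2A10 (2 counts under vehicle and 80 under R1881), SLC2A4 (1.22 ± 0.26), HK2 (50.4, 50.8 and 54.7 to 122, 99.7 and 110 CPM, 1.09 ± 0.16), SLC2A1 (42.6, 54.3 and 54.4 to 113, 93.6 and 101 CPM, 1.02 ± 0.21), SLC2A12 (0.98 ± 0.30) and HK1 (0.73 ± 0.16). SLC2A10 lost its call under 6 and SLC2A12 under 8 of the 14 alternatives. LDHA (0.26 ± 0.26), PKM (0.18 ± 0.22) and GAPDH (0.03 ± 0.19) were not called, with overlapping groups. Without both replicate 1 libraries 2 members of the list were called. Sorbitol dehydrogenase, SORD, which makes fructose from sorbitol, rose from 317, 270 and 273 CPM to 1296, 782 and 1006 CPM (1.84 ± 0.21).

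Genes of the respiratory chain did not pass. Among 48 nuclear genes of oxidative phosphorylation and 13 mitochondrially encoded genes edgeR called 0, none had an unadjusted p under 0.05, and DESeq2 and limma called 0 as well, with medians of 0.13 and 0.16; with the block edgeR called 1 nuclear and 1 mitochondrially encoded gene higher. These genes were also lower in replicate 1 of both treatments (medians -0.51 and -0.44 for the nuclear genes), and the part of that in the result was not tested. Over all genes tested 4.21% were called higher and 4.04% lower, and 8.9% higher with the block. Of 24 genes of fatty acid oxidation 4 rose, among them the enoyl-CoA isomerase ECI2 (1.10 ± 0.18) and the peroxisomal racemase AMACR (0.92 ± 0.28). The 2 that fell were ACAA2 (-0.88 ± 0.19) and HADHB (-0.52 ± 0.13), and 7 of the list were higher with the block. AMACR lost its call under 8 of the 14 alternatives, and without both replicate 1 libraries 1 member of the list was called higher and 0 lower. Polyamine genes rose in 4 of 18 cases: ODC1, the rate-limiting decarboxylase (625, 539 and 526 to 1943, 1178 and 1402 CPM, 1.42 ± 0.21), spermine synthase SMS (1.55 ± 0.17), the acetyltransferase SAT1 (1.60 ± 0.27) and the arginase ARG2 (0.65 ± 0.20), the last of which lost its call under 7 of the 14 alternatives.

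The protein-folding and glycosylation machinery of the endoplasmic reticulum and Golgi rose in part. Of 46 tested genes 10 rose and 0 fell (edgeR; 24 with an unadjusted p under 0.05, and 12 higher and 0 lower by DESeq2 and 9 and 0 by limma), with a median of 0.44, and 26 rose with the replicate block. Among all genes tested 4.21% rose, and 8.9% with the block. ST6GALNAC1, a sialyltransferase of mucin-type glycans, rose from 3.57, 4.86 and 7.38 CPM to 50.3, 47.3 and 84.1 CPM (3.52 ± 0.28). UAP1, which makes UDP-N-acetylglucosamine (1.52 ± 0.15), the disulfide isomerase PDIA5 (1.40 ± 0.17), the membrane-bound bZIP factor CREB3L4 (1.33 ± 0.27) and the stress sensor ERN1 (1.31 ± 0.30) rose as well. HSPA5 (BiP) gave 0.40 ± 0.18 (adjusted p = 0.216; 0.0312 with the block) and XBP1 -0.03 ± 0.15. Without R1881 replicate 3 the count was 6. The list was higher in replicate 1 of the vehicle group by a median of 0.53, and the part of that in the count was not tested.

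**Figure D4:**
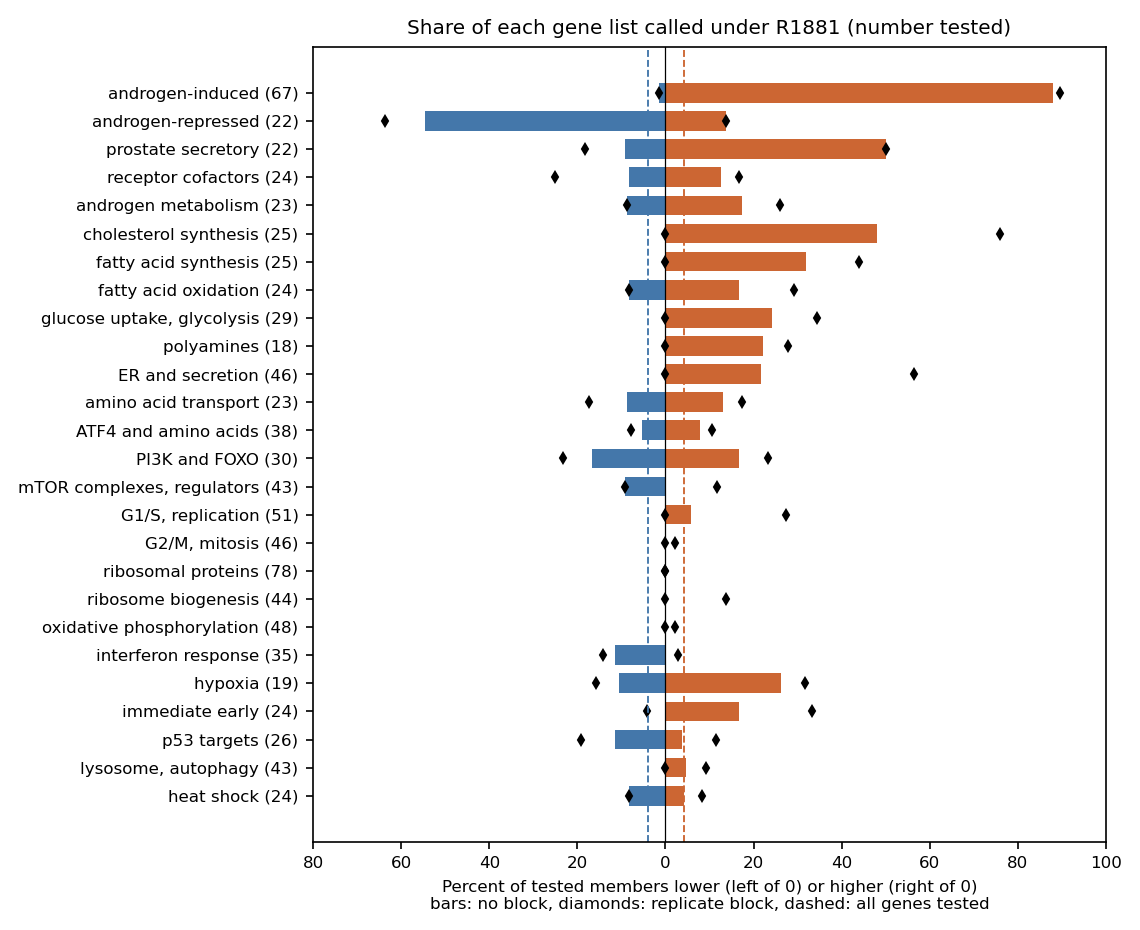
Bars give the percent of the tested members of each gene list (number in brackets) called lower (left) or higher (right) under R1881. Diamonds give the same in the blocked fit. Dashed lines give the percent over all genes tested without the block (4.04% lower, 4.21% higher) and apply to the bars only. For the diamonds the percent over all genes tested was 7.09% lower and 8.9% higher, which is not drawn. The androgen-induced, prostate secretory and cholesterol lists reach furthest right and the androgen-repressed list furthest left, and no bar is seen for ribosomal proteins, ribosome biogenesis, oxidative phosphorylation or mitosis.

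Genes of ribosomes, growth and division were for the most part not called. Over all genes tested 4.21% were called higher, and 8.9% with the replicate block. Of 78 ribosomal protein genes edgeR called 0, with 0 at an unadjusted p under 0.05 and 0 by DESeq2 and limma. Of 44 ribosome biogenesis genes edgeR called 0, with 5 at an unadjusted p under 0.05 and 0 by DESeq2 and limma, and 6 rose with the block. Of 46 mitotic genes edgeR called 0, again with 0 at an unadjusted p under 0.05 and 0 by both other tools, and 1 rose with the block. The proliferation marker MKI67 gave 0.14 ± 0.30. Of 51 genes of G1/S and replication 3 rose (5.88%, beside 4.21% of all genes tested). They were the kinases CDK6 (2.00 to 7.69 CPM, 1.95 ± 0.50) and CDK2 (0.64 ± 0.15) and the phosphatase CDC25A (0.67 ± 0.18). Without both replicate 1 libraries edgeR called none of these 3. With the block 14 of the 51 rose. CCND1 (-0.04 ± 0.13) and MYC (0.40 ± 0.43) were not called.

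Of 43 tested genes for the mTOR complexes and their regulators 4 fell, beside 4.04% of all genes tested, 0 rose and 39 were not called. With the block 5 rose, beside 8.9% of all genes tested. SESN1, a sestrin that restrains mTORC1 when amino acids are scarce, fell from 221, 150 and 148 CPM to 71.9, 69.3 and 71.7 CPM (-1.29 ± 0.21, adjusted p = 9.22e-05), and SESN3 from 366, 142 and 150 CPM to 113, 64.6 and 70.4 CPM (-1.41 ± 0.44, adjusted p = 0.045), a call that was lost under 7 of the 14 alternatives, among them leaving out vehicle replicate 1, R1881 replicate 2 or R1881 replicate 3. SLC38A9, the lysosomal arginine sensor that activates mTORC1, fell from 51.4, 38.0 and 48.5 CPM to 21.5, 20.3 and 18.5 CPM (-1.19 ± 0.16). DEPTOR, an inhibitory partner of both complexes, fell from 18.1, 15.9 and 16.8 CPM to 10.2, 10.5 and 10.1 CPM (-0.72 ± 0.16). In these 4 called genes every R1881 library lay below every vehicle library. The groups did not overlap for 1497 of all 1510 called genes either, nor for 24.6% of all genes tested.

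RPTOR (0.09 ± 0.18), RICTOR (-0.34 ± 0.33), MLST8 (0.14 ± 0.29), AKT1S1 (0.28 ± 0.29) and RHEB (0.23 ± 0.12) were not called. TSC2, a brake on mTORC1, was at 61.2, 90.1 and 97.1 CPM and at 106, 120 and 125 CPM (0.50 ± 0.16, adjusted p = 0.0526; 0.0116 with the block). Of 30 genes of PI3K signalling and FOXO feedback 5 rose and 5 fell, beside 4.21% and 4.04% of all genes tested. The insulin-like growth factor receptor IGF1R rose from 42.9, 41.9 and 45.6 CPM to 256, 220 and 240 CPM (2.46 ± 0.18), the insulin receptor substrate IRS2 from 5.16 to 21.1 CPM (2.03 ± 0.29) and the phosphoinositide phosphatase INPP4B from 4.80 to 21.0 CPM (2.13 ± 0.34). The regulatory subunits PIK3R3 (153 to 55.3 CPM, -1.47 ± 0.17) and PIK3R1 (-0.86 ± 0.27), the PI3K inhibitor PIK3IP1 (-1.12 ± 0.21), the cyclin CCNG2 (-1.61 ± 0.28) and the pseudokinase TRIB1 (-1.38 ± 0.16) fell. PIK3R1 lost its call under 7 of the 14 alternatives.

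Of 23 amino acid transporters 3 were higher and 2 lower (4 and 4 with the block), beside 4.21% and 4.04% of all genes tested (8.9% and 7.09% with the block). Beside SLC38A4, the transporters of large neutral amino acids SLC43A1 (73.8 to 233 CPM, 1.66 ± 0.18) and SLC7A8 (126 to 263 CPM, 1.06 ± 0.17) rose, and SLC7A5 (LAT1), of the same substrate class, fell from 22.0, 29.4 and 27.4 CPM to 5.22, 5.52 and 7.99 CPM (-2.08 ± 0.29). SLC3A2 (-0.02 ± 0.23) and SLC1A5 (0.22 ± 0.16) were not called. Of 38 genes of the ATF4 response and amino acid synthesis 3 rose and 2 fell, with the serine synthesis enzymes PSAT1 (-0.72 ± 0.18) and PSPH (-0.44 ± 0.12) lower. Both lost the call without vehicle replicate 1 and without R1881 replicate 1, and without both of these libraries 1 member of the list was called higher and 0 lower.

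The stress and signalling lists were read beside the 8.25% of all genes that were called. With the block 8.9% of all genes were called higher and 7.09% lower. Of 35 interferon response genes 4 fell and 0 rose (edgeR; 10 with an unadjusted p under 0.05, and 0 higher by DESeq2 and limma; 5 fell and 1 rose with the block, and 1 fell in the 6 libraries alone), led by the RNA sensor DDX58 (9.01 to 3.06 CPM, -1.55 ± 0.32) and IFIT2 (2.20 to 0.789 CPM, -1.44 ± 0.32). Of 19 hypoxia genes 5 rose and 2 fell, among them NDRG1 (54.9, 65.1 and 54.8 to 791, 438 and 792 CPM, 3.53 ± 0.35), the collagen cross-linking enzyme LOX (2.44 ± 0.47) and VEGFA (0.99 ± 0.16), with EGLN3 (-0.82 ± 0.18) and CA12 (-0.78 ± 0.21) lower; without both replicate 1 libraries 3 rose and 1 fell. Of 24 immediate early genes 4 rose and 0 fell by edgeR (11 with an unadjusted p under 0.05, 8 and 1 with the block, 6 and 0 by DESeq2), led by NR4A1 (1.95 ± 0.21) and KLF4 (2.44 ± 0.31). Of 26 p53 targets 1 rose and 3 fell (3 and 5 with the block), with TP53INP1 from 592, 306 and 352 CPM to 108, 79.5 and 89.4 CPM (-2.17 ± 0.29). Of 43 lysosome and autophagy genes 2 rose (4 with the block): NPC1, which exports cholesterol from lysosomes (1.87 ± 0.25), and WIPI1 (1.46 ± 0.24). Of 24 heat shock genes 1 rose (2 with the block), FKBP5, and HSPB8 (-1.36 ± 0.27) and DNAJB4 (-1.24 ± 0.32) fell.

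The calls with nuclear-excluded mTOR were set beside those in the other lines. Of the 1510 genes, 1065 (70.5%) had a call of the same sign in EV, which is 63.9% of the 1666 called there; 946 (62.6%) were in WT, or 79.8% of its 1186, and 689 (45.6%) in NLS, or 84.7% of its 813. The lines have separate vehicle libraries. The gene called in opposite directions was RLN1, the hormone relaxin 1, which fell here from 7.02, 5.48 and 4.26 CPM to 2.69, 4.15 and 2.74 CPM (-0.82 ± 0.23, adjusted p = 0.0236) and rose in EV from 31.3 ± 1.42 to 49.9 ± 2.05 CPM (0.67 ± 0.22, adjusted p = 0.0494). The difference between these responses was -1.49 ± 0.31 and was not called (adjusted p = 0.468; 0.0547 with the block).

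When the difference between responses was tested itself, edgeR called 0 genes against EV, 0 against WT and 0 against NLS. At an unadjusted p under 0.05 there were 490, 274 and 403 genes (2.68%, 1.498% and 2.20%). DESeq2 called 2, 0 and 1 genes and limma on FPKM 56, 2 and 7, and with the replicate block edgeR called 8, 0 and 1, though same-numbered NLS libraries correlated at -0.09 to 0.92, so the numbers did not pair that line throughout. The smallest adjusted p against NLS was that of VWF, which fell by 2.05 ± 0.20 here and gave -0.52 ± 0.19 in NLS (difference -1.53 ± 0.27, adjusted p = 0.134). RUNX1 rose by 5.54 ± 0.44 with nuclear-excluded mTOR and by 3.94 ± 0.42, 3.87 ± 0.45 and 3.80 ± 0.44 in EV, WT and NLS; the differences of 1.61 ± 0.57, 1.67 ± 0.62 and 1.74 ± 0.60 were not called (adjusted p = 1.0, 1.0 and 0.985). A missed threshold does not show that responses were alike.

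Known targets are examples. KLK3 rose by 1.91 ± 0.32 here, by 1.93 ± 0.32 in EV, by 2.97 ± 0.33 in WT and by 2.77 ± 0.33 in NLS, and KLK2 by 3.95 ± 0.27, 3.21 ± 0.26, 4.61 ± 0.28 and 4.44 ± 0.28. The NES value of KLK3 was close to that of EV, and for KLK2 it lay between EV and the other lines, but none of these differences was called (adjusted p from 0.985 to 1.0). The plot of the named genes in 4 lines shows these values.

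**Figure D5:**
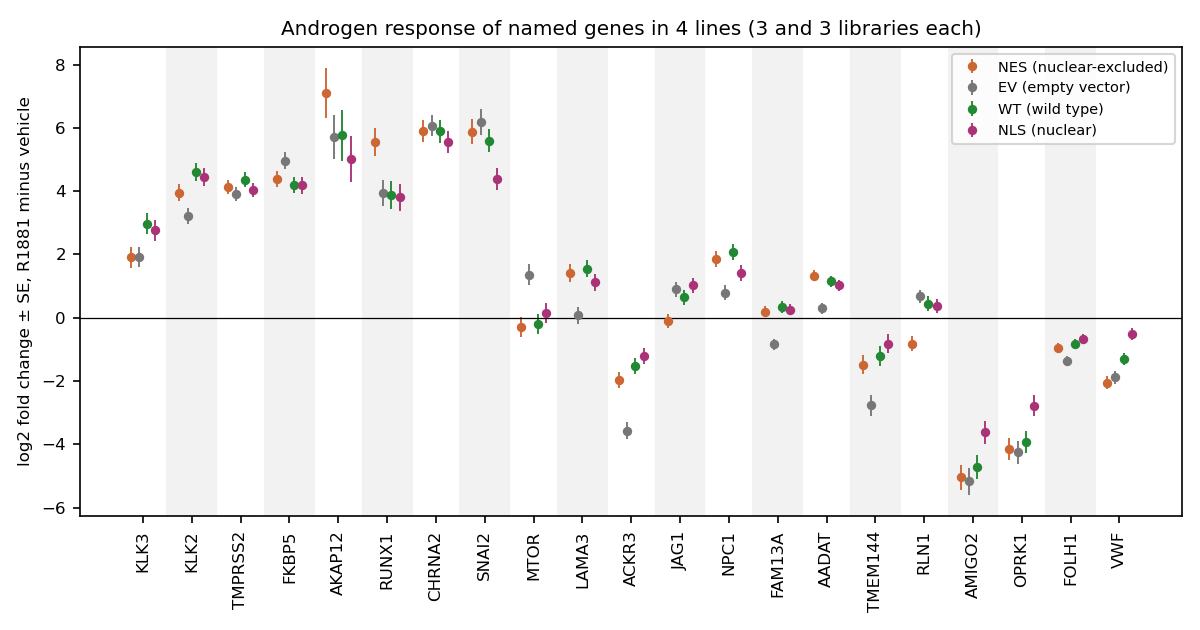
The y axis is the edgeR log2 fold change of R1881 over vehicle with its standard error, for genes named in the text or in the closing section in the NES, EV, WT and NLS lines (3 vehicle and 3 R1881 libraries each). The RUNX1 value of NES (5.54) lies above the others (3.80 to 3.94), MTOR lies at 1.36 in EV and at -0.29 in NES, and RLN1 lies below 0 in NES (-0.82) and above it in EV (0.67).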

How the data were processed

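Total RNA libraries (paired-end, NEBNext Ultra II, NovaSeq, per the labels' protocols) were processed by the authors with HISAT2 2.0.5 and featureCounts 1.5.0-p3 on hg38, per the submitters' processing notes. The sources used here do not give the strand setting or the handling of multi-mapped reads, so overlapping, antisense and near-identical genes are uncertain. The deposited table holds whole-number counts, used for the tests, and FPKM values computed by the authors, used for levels per gene length and for limma. It covers 58735 genes in 30 libraries. Every library carries the shRNA, and cells without it were not analysed here.

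Genes were filtered with filterByExpr (18296 kept), scaled with TMM and tested with edgeR 4.0.16 quasi-likelihood F tests in 1 fit over all 30 libraries with 1 mean per group, so that all groups share the estimate of spread. Calls were made at an adjusted p under 0.05 (Benjamini-Hochberg over all genes tested). A difference of responses was a contrast in the same fit. R 4.3.3, DESeq2 1.42.0, limma 3.58.1 on log2(FPKM + 1), Python 3.11.15, pandas 2.3.3 and scipy 1.17.1 were used, and the tests were checked on simulated counts. Counting intervals (95%) and the floor of 3 counts over a group cover counting error only.

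Libraries were paired by the replicate numbers in the sample titles. Deviations of same-numbered NES vehicle and R1881 libraries from their group means correlated at 0.60 to 0.79. Between replicates 2 and 3 of opposite treatments the correlations were 0.49 and 0.43, so the numbers set these replicates apart less than replicate 1. Same-numbered libraries correlated at 0.38 to 0.74 in EV, 0.34 to 0.59 in WT and -0.09 to 0.92 in NLS, whose numbers therefore did not all pair. Values with the replicate number as a block stand beside results they change. Alternatives were DESeq2, its size factors, no low-count filter, limma, the 6 libraries alone, leaving out each library or both replicate 1 libraries, and thinning the deepest library from 61762468 counts to the total of R1881 replicate 3.

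The members and gene lists were chosen with earlier results of these data known. Named genes were, of the called protein-coding genes that averaged at least 5 CPM in the higher group and whose libraries did not overlap, the 12 highest and 12 lowest by fold change, the 4 highest and 4 lowest of other biotypes by the same rule, up to 4 called members per list by adjusted p, and MTOR, KLK3, KLK2, TMPRSS2 and FKBP5. Some genes that the rule or the lists take are not reported here, although the counts over lists include them. For differences of responses the rule took the 4 highest and 4 lowest called genes. All other genes in the text were chosen after their values were seen.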

Additional observations from a re-analysis of the deposited data

Results flagged for a closer look

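For 8 genes the androgen response of NES differed from that of EV, and for 1 of them also from that of NLS, by the test of the difference in the edgeR fit with the replicate number as a block. None of these 9 differences was called without the block, where the adjusted p ran from 0.468 to 1.0. MTOR itself gave -0.29 ± 0.32 in NES and 1.36 ± 0.33 in EV, a difference of -1.64 ± 0.149 (block adjusted p = 6.09e-05); EV carries no rescue construct, and its MTOR level was 25.7 ± 4.86 CPM under vehicle. ACKR3, a chemokine receptor, fell in both lines, by less in NES (difference 1.64 ± 0.188, adjusted p = 0.000946). LAMA3, a laminin chain, rose by 1.41 in NES and gave 0.08 in EV (difference 1.32 ± 0.164, adjusted p = 0.0019).

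JAG1, a Notch ligand, gave -0.10 in NES, 0.89 in EV and 1.03 in NLS. The differences were -1.02 ± 0.158 from EV (block adjusted p = 0.0282) and -1.10 ± 0.158 from NLS (adjusted p = 0.0415). Same-numbered NLS libraries correlated at -0.09 to 0.92, so the block from NLS rests on numbers that did not pair all of its libraries. Its vehicle level was also higher in NES, at 151 ± 27.7 CPM, than in EV, at 59.7 ± 17.5 CPM. NPC1, the lysosomal cholesterol exporter, rose more in NES than in EV (difference 1.04 ± 0.17, adjusted p = 0.0397). The differences from EV were 1.06 ± 0.182 for FAM13A, 1.03 ± 0.173 for AADAT, an enzyme of lysine and tryptophan breakdown, and 1.31 ± 0.225 for TMEM144, each with a block adjusted p of 0.0442.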

How the results depend on the processing

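The count of 1510 called genes (770 higher, 740 lower) was 2926 with the replicate block (1629 and 1297), 836 in the 6 libraries alone (420 and 416) and 778 without both replicate 1 libraries (398 and 380). Leaving out 1 library at a time gave 1011 to 1294 calls, 518 to 633 higher and 474 to 697 lower; the lower calls were fewest without R1881 replicate 2 (474) or 3 (493). By direction, the split with DESeq2 size factors was 718 higher and 780 lower. Cholesterol genes called higher numbered 12, 19 with the block, 3 in the 6 libraries alone, 5 without both replicate 1 libraries and 4 to 11 without 1 library. Fatty acid synthesis gave 8, and 4, 5 and 5 to 9 in the last 3 of these settings, glycolysis 7, and 4, 2 and 5 to 7, and the endoplasmic reticulum list 10, 26 with the block, 6 in the 6 libraries alone and 6 to 9 without 1 library. Androgen-induced genes ran from 54 to 58 and repressed genes from 12 to 13 without 1 library. Differences between responses, 0 with edgeR, numbered 10, 3 and 5 (EV, WT, NLS) without the low-count filter, 8, 0 and 1 with the block, 2, 0 and 1 with DESeq2 and 56, 2 and 7 with limma. MTOR gave 0.0497 in place of -0.29 without vehicle replicate 1, and from -0.60 to 0.0497 over the libraries left out in turn. Of 191 named genes, 189 of them called, 64 lost the call under at least 1 of 14 settings, most often without both replicate 1 libraries (49), and 1 reversed. The causes were not tested. With 3 libraries a group, the exact test cannot go below 0.1, and low genes rest on few counts.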

Other observations

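Of 1141 tested genes that the deposited table assigns to a transcription factor family, 47 rose and 45 fell, which is 8.06% beside 8.25% of all genes. Beside SNAI2, RUNX1 and MAF, the homeobox gene DLX1 (3.80), the T-box gene TBX15 (3.55), ZBTB16 (2.47), KLF4 (2.44), KLF5 (2.37) and KLF15 (2.10) were higher by these log2 fold changes. Among those that fell were the LIM homeobox gene LHX9 (-3.66), the orphan nuclear receptor NR2F1 (-3.27), MYB (-2.98), RFX3 (-2.69), the Hedgehog effector GLI3 (-2.27), and TRPS1 (-1.90).

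By biotype, edgeR called 6.68% of 1212 lincRNA genes, 5.35% of 1402 antisense genes and 9.39% of 13489 protein-coding genes. The difference between biotypes was not tested, and the called share also moved with the level, from 3.89% of genes under 1 CPM to 10.7% of those from 1 to 5 CPM. ZNF812P, a pseudogene, went from 0.409, 0.0442 and 0.527 CPM to 23.8, 15.4 and 18.2 CPM (5.83 ± 0.59). COLCA1 fell from 260, 181 and 165 CPM to 25.2, 30.3 and 24.5 CPM (-2.92 ± 0.28), and AC069228.1 from 93.8, 56.1 and 30.6 CPM to 6.14, 6.89 and 4.69 CPM (-3.35 ± 0.39). LINC01297 is listed under separate IDs on chromosomes 22 and 14, which rose by 6.04 ± 0.48 and 5.52 ± 0.59 (the latter 4.88 without vehicle replicate 1 and 6.15 without vehicle replicate 3), and reads could belong to either copy.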
